A study of Rattus norvegicus with 35 samples.

Results

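Glutathione transferases join glutathione, the main small thiol of the cell, to reactive compounds and so make them water-soluble and ready for export. The cytosolic enzymes fall into classes named by Greek letters, and a separate family of microsomal enzymes sits in membranes, where several members also reduce lipid peroxides. Transcription of many of these genes is known to respond to oxidants and electrophiles, in part through the antioxidant response element. The 9 rat genes described here cover the alpha class (Gsta1 and Gsta4), the mu class (Gstm1 and Gstm2), the pi class (Gstp1), the theta class (Gstt1 and Gstt2) and the microsomal family (Mgst1 and Mgst3). Their members were all probe-sets whose annotation names 1 of these genes and no other gene, which gave 17 of the 8740 probe-sets tested, and all 9 genes were represented among the 4736 genes with such a probe-set. Gsta1 and Gstm1 had 3 probe-sets each, Gsta4, Gstm2, Gstp1 and Gstt2 had 2 each, and Gstt1, Mgst1 and Mgst3 had 1 each.

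The arrays were Affymetrix RG-U34A arrays of ventricular cardiac cells from neonatal rats, 35 arrays in 12 groups, and the question was how the response of each cell population differed between mechanical and genotoxic stress. One population was enriched for cardiac myocytes (CM) by pre-plating, and the other consisted of cultures of fibroblasts (FB), which were subcultured and grown for longer and in another serum. Cells received cyclic stretch for 24 h (MS), 8.5 Gy of X-rays (IR) or 10 J/m2 of UVC (UV), and RNA was taken at 24 h. The controls were unstretched, sham-irradiated or handled alike without UV, and each stressor had controls of its own. All MS cells of both populations, stretched or not, grew in stretch plates bearing a layer of collagen I. The methods name no such surface for IR or UV. The part of this surface in differences between the MS controls and the controls of IR or UV was not tested. CM-enriched cultures were separated by centrifugal elutriation after IR and UV but not after MS, so that the MS cultures kept more non-myocytes. Each group held 3 arrays from independent experiments except the CM UV controls, which held 2. Treated and control arrays of one experiment number were taken as a pair, which leaves the third CM UV treated array without a control of its own and that comparison with 2 pairs. The populations were cultured and harvested differently, so culture and cell type cannot be told apart. The deposited values of CM IR, and some of CM UV, were also on another intensity scale than all FB values before the scaling used here. In such bulk samples fewer cells of a type and less RNA per cell cannot be told apart either.

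All 17 probe-sets lay above the floor for low values on all 35 arrays. The labels were checked against marker lists for each cell type, on summed intensities after scaling. The 17 cardiomyocyte markers summed to 50930 to 98070 in untreated CM-enriched samples and to 4580 to 28900 in untreated fibroblasts. The 19 fibroblast markers summed to 53580 to 71060 in untreated fibroblasts, to 26060 to 35730 in untreated CM IR and CM UV samples, and to 49560 to 55570 in the CM MS controls. Each population thus held RNA of the other cell type, and the CM MS cultures came close to fibroblasts in their fibroblast markers. Several probe-sets have identifiers that end in _f_at or _s_at, which marks probes shared within a gene family or between transcripts. All probe-sets of Gsta1, Gstm1, Gstm2 and Gstp1 have such an ending, as does D10026_s_at of Gstt2. Their values may therefore include related transcripts, which is uncertain for each of them. The identifiers of Gsta4 have neither ending.

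Promoter sequence was read from RefSeq (build GRCr8) as 250 bases before and 50 bases after the transcript start for 7 of the 9 genes, all but Gstt1 and Gstt2. The 150 bases just before the start are given for the 3 genes that were up-regulated in fibroblasts after UV (Gstp1, Mgst1 and Gstm1), to show where the letters of 2 sites of stress-responsive factors occur in them. The sites were TGACNNNGC, the core of the antioxidant response element, and TGANTCA, a form of the AP-1 site with any base at its centre. They can overlap, and both strands were searched. Capitals mark a match. The stretches lie at chr1:210769706-210769855 on the minus strand for Gstp1, at chr4:172760780-172760929 on the plus strand for Mgst1 and at chr2:198343384-198343533 on the minus strand for Gstm1. For Gstp1 and Gstm1 the annotated gene reaches further upstream than the start used here.
Gstp1: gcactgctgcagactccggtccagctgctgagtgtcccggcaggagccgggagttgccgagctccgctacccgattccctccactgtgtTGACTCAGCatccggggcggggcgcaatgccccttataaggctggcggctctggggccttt
Mgst1: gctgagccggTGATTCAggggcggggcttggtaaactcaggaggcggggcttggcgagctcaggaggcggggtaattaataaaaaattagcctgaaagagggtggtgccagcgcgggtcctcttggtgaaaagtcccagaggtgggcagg
Gstm1: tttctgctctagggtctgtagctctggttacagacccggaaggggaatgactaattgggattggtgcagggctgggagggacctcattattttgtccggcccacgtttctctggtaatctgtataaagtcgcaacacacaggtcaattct
In Gstp1 the run TGACTCAGC, whose first base lies at -61 from the start, matched both motifs. Mgst1 held a match to the looser pattern TGANTCA at -140, the run TGATTCA, and Gstm1 held neither motif. Among all 7 windows of 300 bases, the remaining match was TGACTTTGC in Gsta1, at base 31 of the transcript. TGACNNNGC occurs in 12.1% and TGANTCA in 7.33% of the 33469 windows of the same length. A match shows that these letters are present, not that the site is used.

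Before any stress the populations differed most in Gsta1, Gstt1 and Mgst3. Gsta1, an alpha-class enzyme, was higher in fibroblasts: its log2 levels for K01932_f_at were 6.62, 6.85 and 6.71 in the CM IR controls against 9.82, 9.89 and 10.09 in the FB IR controls. Levels here are log2 of the scaled and normalised intensity of 1 probe-set, and can be compared between arrays but not between probe-sets. No CM array reached the level of any FB array, and the difference was -3.21 (SE 0.26, adjusted p = 6.08e-06, limma). For the UV controls the same probe-set differed by -2.40 (SE 0.29, adjusted p = 1.29e-04). The other Gsta1 probe-sets differed by -3.42 and -2.12 in the IR controls and by -2.75 and -2.64 in the UV controls, all 4 called. In the MS controls the difference was smaller, at -0.83 and -1.38 for 2 called probe-sets and 0.15 for the third, X78848cds_f_at, which was not called (adjusted p = 0.797). The first of these calls was lost without replicate 1, at -0.52 (adjusted p = 0.382), and without replicate 2, at -0.72 (adjusted p = 0.306). The second was lost without replicate 1 (-1.15, adjusted p = 0.0683). Here and below a replicate number was left out of all groups at once. A lost or gained call can therefore not be tied to that experiment alone.

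Both theta-class genes were also higher in fibroblasts. Gstt1 had levels of 4.01 and 3.14 in the CM UV controls and of 6.56, 7.02 and 6.68 in the FB UV controls. This was the widest gap of any member in the UV controls, -3.18 (SE 0.27, adjusted p = 1.20e-05), and it was -2.14 in the IR controls (adjusted p = 6.25e-05) and -0.16 in the MS controls (adjusted p = 0.733). The CM UV levels of Gstt1 are low, with scaled intensities down to 9.90 against a floor of 6.88. Gstt2 differed through rc_AI138143_at, by -0.92, -1.36 and -1.89 in the controls of MS, IR and UV (adjusted p = 0.00643, 3.52e-04 and 1.08e-04). The first of these was lost without replicate 2, at -0.79 (adjusted p = 0.0550), and without replicate 3, at -0.98 (adjusted p = 0.0698). Its second probe-set, D10026_s_at, was not called in any of the 3, with differences of 0.27, -0.70 and -0.57, so the probe-sets of Gstt2 disagree at this point.

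Mgst3, a microsomal enzyme with glutathione peroxidase activity, was the only member gene higher in CM-enriched samples of all 3 stressors. Its levels were 11.00 and 11.05 in the CM UV controls and 9.00, 8.43 and 8.72 in the FB UV controls. No CM control array of any stressor fell to the level of the FB arrays of that stressor. The differences were 1.80 (adjusted p = 0.00240) for MS, 2.70 (adjusted p = 9.60e-05) for IR and 2.31 (adjusted p = 7.34e-04) for UV. The first was lost without replicate 3 (1.59, adjusted p = 0.0622). Mgst1, the founding microsomal transferase, changed side between the controls: it was higher in CM-enriched cultures of MS by 1.13 (adjusted p = 0.0184) and lower in CM-enriched fractions of IR by -1.05 (adjusted p = 0.0232) and of UV by -1.20 (adjusted p = 0.0226). The MS and IR calls of Mgst1 were lost without replicate 2 (1.04 and -1.02). All 3 Mgst1 calls were lost without replicate 3 (0.84, -1.01 and -1.23), with adjusted p from 0.101 to 0.254 over these fits. Without replicate 2 a single CM UV control is left, and the UV difference was -0.62.

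Gsta4 and Gstm2 were not called in any of the controls, but both were called under some alternatives. Without replicate 3 the Gstm2 probe-sets J02592_s_at and J03914cds_s_at were called lower in CM for IR, at -1.04 (adjusted p = 0.00488) and -1.02 (adjusted p = 0.0247) against -0.47 and -0.62 over all controls. For MS they were then called at -0.87 (adjusted p = 0.0130) and -0.91 (adjusted p = 0.0472), against -0.57 and -0.68. Gsta4 X62660mRNA_at differed by 1.07 in the MS controls (adjusted p = 0.0749) and was called with a pseudocount (0.99, adjusted p = 0.0493) and with dim probe-sets left out (adjusted p = 0.0390). Its second probe-set, X62660mRNA_g_at, differed by 0.95 (adjusted p = 0.106) and was called on the arrays of the MS controls alone (adjusted p = 0.0247). The pi-class gene Gstp1 was called higher in fibroblasts through X02904cds_s_at in the IR controls, by -1.03 (adjusted p = 0.0171), and without replicate 2 or 3 that call was lost, at -0.99 (adjusted p = 0.134) and -0.85 (adjusted p = 0.183). In the UV controls X02904cds_s_at differed by -0.72 (adjusted p = 0.129) and rc_AI012589_s_at by -0.77 (adjusted p = 0.0744). Without replicate 1, which leaves a single CM UV control, they differed by -1.20 and -0.99. The UV difference of rc_AI012589_s_at was called with dim probe-sets left out (adjusted p = 0.0402). Its IR difference of -0.56 (adjusted p = 0.132) was called without replicate 1 (-0.83, adjusted p = 0.0141). Gstm1 was higher in the CM MS controls through 1 of 3 probe-sets, X04229cds_s_at, by 0.74 (adjusted p = 0.0274), and this was lost without replicate 2 (0.60, adjusted p = 0.261) and without replicate 3 (0.58, adjusted p = 0.271). Counted by probe-sets, 3 members were higher in CM and 3 in FB among the MS controls, where 22.5% of all probe-sets were called, 10.3% higher in CM and 12.2% higher in FB. The split was 1 and 7 for IR, against a background of 25.2% (12.2% and 13%), and 1 and 6 for UV, against 22.5% (10.6% and 11.9%).

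**Figure D1:**
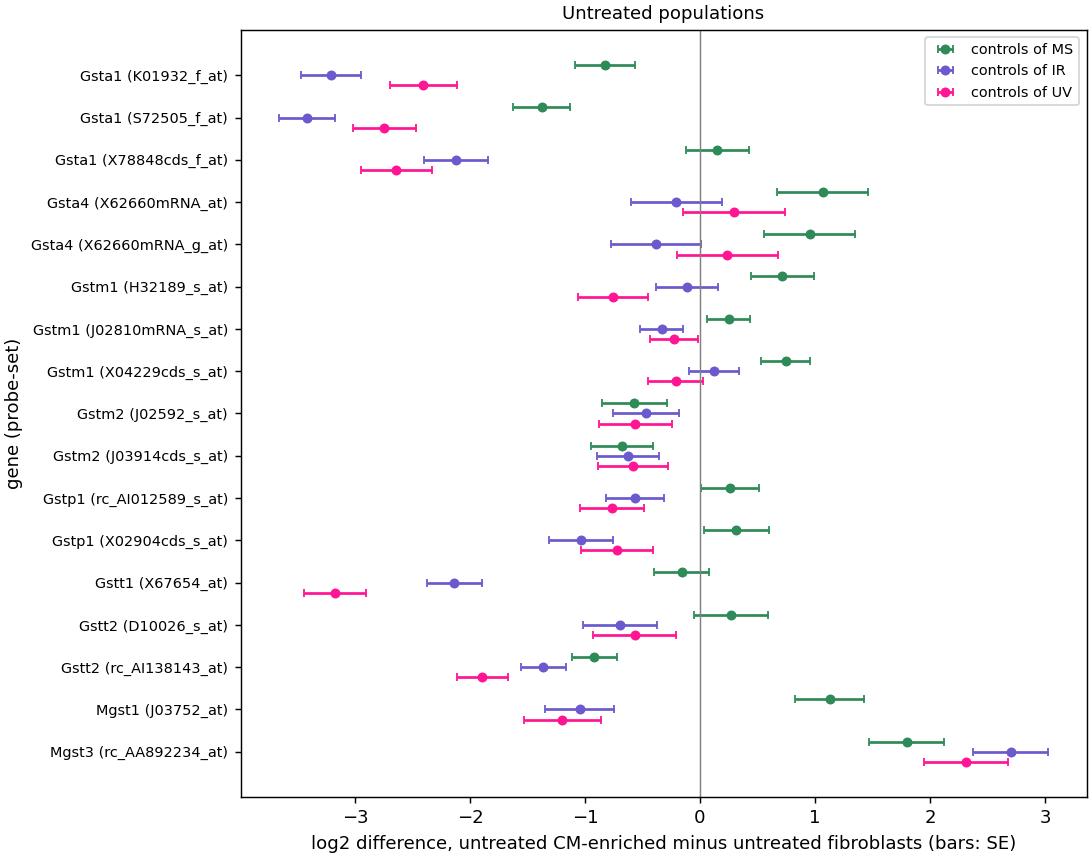
Log2 difference between untreated CM-enriched samples and untreated fibroblasts (x axis) for each of the 17 probe-sets (y axis), in the controls of MS, IR and UV. Points are fitted differences and bars their SE. Gsta1 and Gstt1 lie far to the left for IR and UV but near 0 or closer to it for MS, and Mgst3 lies to the right for all 3.

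After UV the genes changed in different directions, also within the microsomal family. Gstm1 was up-regulated in both populations, Gstt1 and Gstt2 in CM-enriched fractions, and Gstp1 and Mgst1 in fibroblasts. Mgst3 was down-regulated in both, and Gsta1 and Gstt1 in fibroblasts. Of the 17 probe-sets, 6 rose and 1 fell in CM UV, where 8.62% of all probe-sets rose and 8.16% fell. In FB UV 6 rose and 5 fell, where 11.7% of all rose and 11.2% fell. The called members made up 41.2% in CM UV, against 16.8% of all probe-sets, and 64.7% in FB UV, against 22.9%. These shares are not fully alike, since no member lay at the floor, where 14.5% to 24.7% of all values on an array did. The 17 probe-sets also stand for only 9 genes. The median change over the members was 0.31 in CM UV and 0.08 in FB UV, and over all probe-sets it was 0 in both. When CM UV was fitted on its own arrays only, which leaves 2 pairs, none of its 7 calls held (0 rose and 0 fell). The FB UV calls went to 3 higher and 1 lower on their own arrays.

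**Figure D2:**
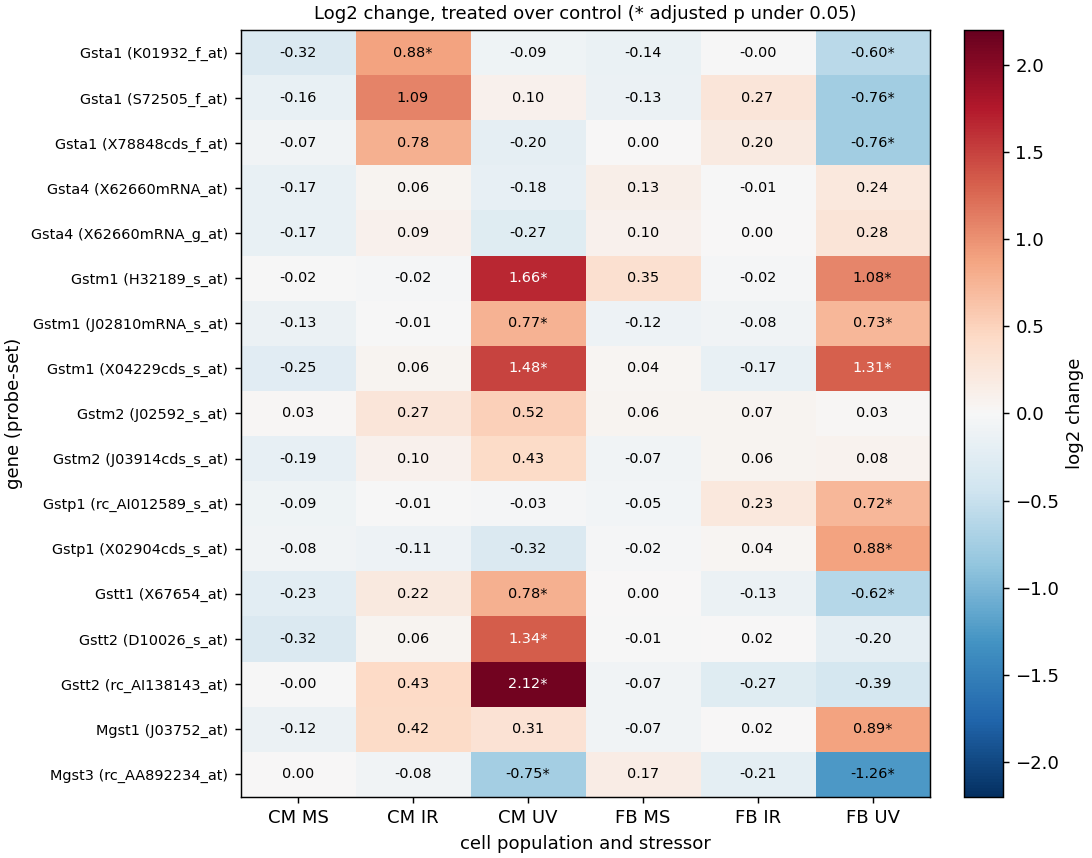
Fitted log2 change of treated over control samples for each probe-set (rows) in the 6 comparisons (columns), coloured from blue (lower) to red (higher), with an asterisk at an adjusted p under 0.05. The calls stand in the UV columns apart from 1 Gsta1 probe-set in CM IR, and the MS columns have none.

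In the mu class the calls after UV were those of Gstm1. In CM-enriched fractions X04229cds_s_at had levels of 7.46 and 7.16 in the controls and of 8.94, 8.65 and 9.05 after UV. In fibroblasts the levels were 7.25, 7.73 and 7.59 in the controls and 8.68, 8.74 and 9.08 after UV. All treated arrays exceeded all control arrays in both populations. The change was 1.48, or 2.79-fold, in CM UV (SE 0.22, adjusted p = 6.03e-04) and 1.31, or 2.48-fold, in FB UV (SE 0.18, adjusted p = 1.49e-04). H32189_s_at changed by 1.66 (adjusted p = 1.40e-04) in CM UV and 1.08 (adjusted p = 3.07e-04) in FB UV. J02810mRNA_s_at changed less, by 0.77 (adjusted p = 0.00763) and 0.73 (adjusted p = 0.00170). The 3 probe-sets thus gave one direction with different sizes. The difference between populations was not called for any of the 3, at 0.58, 0.04 and 0.17 for the CM minus the FB change (adjusted p from 0.226 to 1). Without replicate 1 or 2 the CM UV change rests on a single pair, so only its size is given. For J02810mRNA_s_at it was 0.61 without replicate 1 and 0.93 without replicate 2. For X04229cds_s_at it was 1.49 without replicate 1.

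Gstm2, the other mu-class gene, was not called in either population. Its probe-sets changed by 0.52 (95% interval 0.09 to 0.94, adjusted p = 0.0951) and 0.43 (0.05 to 0.80, adjusted p = 0.118) in CM UV. Without replicate 2, which leaves a single CM UV pair, the first of them, J02592_s_at, changed by 0.73. In FB UV the changes were 0.03 and 0.08 (adjusted p = 1 and 0.845). The changes of Gstm1 and Gstm2 were not tested against each other.

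The largest change of the members in CM-enriched fractions after UV was that of a theta-class probe-set, rc_AI138143_at of Gstt2. The other theta-class probe-sets changed less than H32189_s_at and X04229cds_s_at of Gstm1. Gstt2 levels for rc_AI138143_at were 4.54 and 5.35 in the CM UV controls and 6.88, 7.25 and 7.77 after UV. The lowest treated array was well above the highest control, and the change was 2.12, or 4.35-fold (SE 0.21, adjusted p = 4.11e-05). D10026_s_at went from 6.19 and 6.04 to 7.47, 7.43 and 7.36, a change of 1.34 or 2.53-fold (SE 0.18, adjusted p = 2.92e-04). In fibroblasts the levels of rc_AI138143_at were 6.77, 6.89 and 6.84 in the controls and 6.85, 6.33 and 6.15 after UV. That change of -0.39 was not called (adjusted p = 0.140), nor was the -0.20 of D10026_s_at (adjusted p = 0.421). The treated CM-enriched fractions reached levels of this probe-set at or above those of the fibroblasts, from controls that were below them.

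Gstt1 moved in opposite directions in the populations. Its levels were 4.01 and 3.14 in the CM UV controls and 5.17, 3.54 and 4.56 after UV, groups that overlap, but it rose within both pairs, by 0.40 and 1.16. The fitted change was 0.78 (SE 0.21, adjusted p = 0.0247). Without replicate 1, which leaves a single CM UV pair, it was 0.40. Without replicate 3, which keeps both CM UV pairs, it stayed at 0.78 but the call was lost (adjusted p = 0.101). In fibroblasts the levels fell from 6.56, 7.02 and 6.68 to 6.24, 6.06 and 6.10, without overlap. The change was -0.62 (SE 0.17, adjusted p = 0.0202), and it was lost on leaving out replicate 1 (-0.76, adjusted p = 0.0608), 2 (-0.45, adjusted p = 0.0661) or 3 (-0.64, adjusted p = 0.169). The CM UV call was also lost, and the change was smaller, with scaling alone and no quantile normalisation (0.47, adjusted p = 0.147), with a pseudocount in place of the floor (0.43, adjusted p = 0.145) and with a higher floor (0.28, adjusted p = 0.461). With a random block for the experiment the FB UV call was lost (adjusted p = 0.0705).

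The difference between the populations after UV was tested for each probe-set and was called for all 3 theta-class probe-sets and no other member, 17.6% of the members against 6.35% of all probe-sets (3.63% with the higher change in CM). The CM change exceeded the FB change by 1.40 for Gstt1 (SE 0.27, adjusted p = 0.0107). With the higher floor this difference was 0.90 and no longer called (adjusted p = 0.0556). For Gstt2 the excess was 1.53 for D10026_s_at (SE 0.23, adjusted p = 0.00231) and 2.51 for rc_AI138143_at (SE 0.27, adjusted p = 3.17e-04). The 3 differences were lost when the UV arrays were fitted alone. Without replicate 3 the calls of both Gstt2 probe-sets held, and that of Gstt1 was lost, at 1.42 (adjusted p = 0.0997). Without replicate 1 or 2 the CM UV side rests on a single pair, so only sizes are given. The difference of D10026_s_at was 1.48 without replicate 1 and 1.42 without replicate 2. That of Gstt1 was 1.16 without replicate 1.

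**Figure D3:**
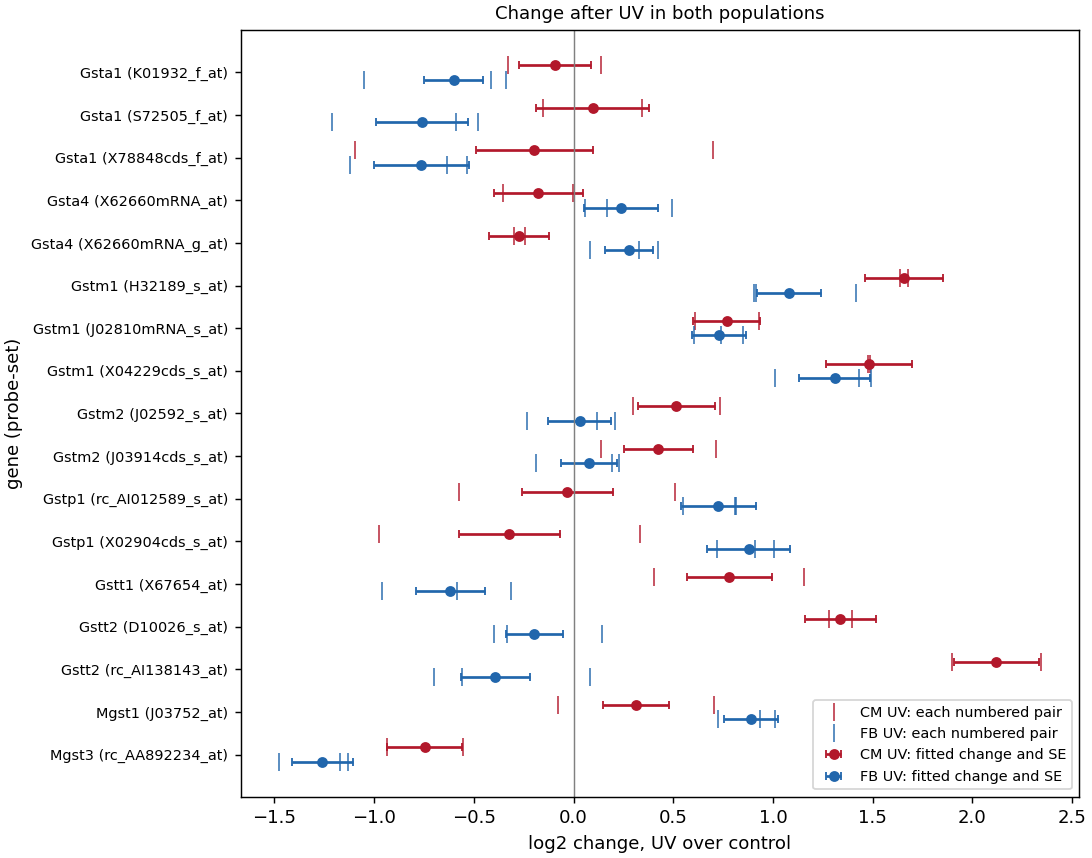
Log2 change after UV (x axis) for each probe-set (y axis) in CM-enriched fractions (red) and fibroblasts (blue). Dots with bars are fitted changes with SE, and ticks are the numbered pairs, 2 for CM and 3 for FB. The populations lie together for Gstm1 and on opposite sides of 0 for Gstt1.

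Gstp1, the pi-class enzyme and a marker of pre-neoplastic rat liver, was up-regulated in fibroblasts. For X02904cds_s_at the FB UV levels were 10.37, 10.63 and 10.21 in the controls and 11.28, 11.35 and 11.21 after UV. The treated arrays were tightly grouped and above all controls, with a change of 0.88 or 1.84-fold (SE 0.21, adjusted p = 0.00786). The second probe-set, rc_AI012589_s_at, changed by 0.72 (adjusted p = 0.0135). In CM-enriched fractions the levels of X02904cds_s_at were 10.14 and 9.22 in the controls and 9.16, 9.55 and 10.09 after UV, with the 2 pairs moving apart (-0.98 and 0.33). The change there was -0.32 (95% interval -0.87 to 0.23, adjusted p = 0.487). The difference between populations was -1.20 for X02904cds_s_at (adjusted p = 0.0507), just outside the threshold. For rc_AI012589_s_at it was -0.76 (adjusted p = 0.1745) and was called under no alternative. That of X02904cds_s_at was called when dim probe-sets were left out (adjusted p = 0.0149) and with a pseudocount (-1.19, adjusted p = 0.0230). Without replicate 2, which leaves a single CM UV pair, it was -1.94. The FB UV calls of both probe-sets were lost without replicate 3 (0.82, adjusted p = 0.0991, for X02904cds_s_at and 0.68, adjusted p = 0.113, for rc_AI012589_s_at), and that of rc_AI012589_s_at also without replicate 2 (0.68, adjusted p = 0.0937).

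The microsomal genes moved apart in fibroblasts. Mgst1 went from 9.52, 9.78 and 9.55 to 10.46, 10.51 and 10.56 in FB UV. It rose in all 3 pairs, by 0.89 or 1.85-fold (SE 0.14, adjusted p = 3.71e-04), and the call held under all 10 alternatives run for it. In CM UV the change was 0.31 (95% interval -0.05 to 0.67, adjusted p = 0.251). The difference between populations was -0.58 (adjusted p = 0.153) and was not called.

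Mgst3 fell in both populations. In fibroblasts its levels were 9.00, 8.43 and 8.72 in the controls and 7.83, 6.95 and 7.59 after UV, a change of -1.26 or 2.39-fold lower (SE 0.15, adjusted p = 6.43e-05). This call also held under all 10 alternatives run. In CM-enriched fractions it went from 11.00 and 11.05 to 10.07, 10.50 and 9.85, a change of -0.75 or 1.68-fold lower (SE 0.19, adjusted p = 0.0175). The CM UV call was lost without replicate 1 (-0.55, adjusted p = 0.427), without replicate 2 (-0.93, adjusted p = 0.110) and without the block for the experiment (-0.89, adjusted p = 0.215). The summed cardiomyocyte markers, the cell type in which Mgst3 was higher, moved with it. They lay at 26210 to 28900 in FB UV controls and at 9356 to 14750 after UV. There 13 of 17 genes were called lower, against 13% of all genes. In CM UV the sums were 88430 to 98070 in the controls and 65320 to 74570 after UV. There 4 of 17 were called lower, against 9.21% of all genes. Fibroblast markers also fell in CM UV, from 28500 to 31180 in the controls to 23490 to 25540 after UV. Of these 19 genes, 6 were called lower and 1 higher there, so the fall was not particular to cardiomyocyte markers. None of the 17 cardiomyocyte markers was at the floor on all arrays of a UV group. The part of the markers in the fall of Mgst3 was not tested.

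In the alpha class Gsta1 was down-regulated in fibroblasts after UV and Gsta4 was not called. The FB UV levels of Gsta1 for S72505_f_at were 9.13, 9.41 and 8.67 in the controls and 8.65, 8.21 and 8.08 after UV. The groups just miss each other, and the change was -0.76 or 1.69-fold lower (SE 0.23, adjusted p = 0.0314). K01932_f_at and X78848cds_f_at changed by -0.60 (adjusted p = 0.00982) and -0.76 (adjusted p = 0.0356). These calls were lost without replicate 3 for all 3 probe-sets (-0.73, -0.85 and -0.83, adjusted p from 0.0573 to 0.214), and for K01932_f_at and S72505_f_at also without replicate 1 (-0.69 and -0.90) and replicate 2 (-0.38 and -0.53). Summed fibroblast markers in the same arrays went from 64670 to 71060 in the controls to 49820 to 56130 after UV. Of the 19 genes, 7 were called lower and 2 higher, where 13% of all genes fell and 13.9% rose. The part of the markers in the Gsta1 change was not tested. In CM UV the Gsta1 probe-sets K01932_f_at, S72505_f_at and X78848cds_f_at changed by -0.09, 0.10 and -0.20, none called. The 2 pairs of X78848cds_f_at moved apart, by -1.10 and 0.70, and without replicate 2 the first pair alone gave -1.10. The difference between populations for this probe-set was 0.57 (adjusted p = 0.462). Without replicate 1, which leaves a single CM UV pair, it was 1.57.

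Gsta4, the alpha-class enzyme that conjugates the lipid aldehyde 4-hydroxynonenal, changed by -0.18 and -0.27 in CM UV and by 0.24 and 0.28 in FB UV (adjusted p from 0.136 to 0.734). Both pairs of CM and all 3 pairs of FB moved in those directions for both probe-sets. The difference between populations was not called (adjusted p = 0.491 and 0.126). Without replicate 3, X62660mRNA_g_at was called in CM UV (-0.27, adjusted p = 0.0391), in FB UV (0.38, adjusted p = 0.00978) and for the difference (-0.65, adjusted p = 0.0203).

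**Figure D4:**
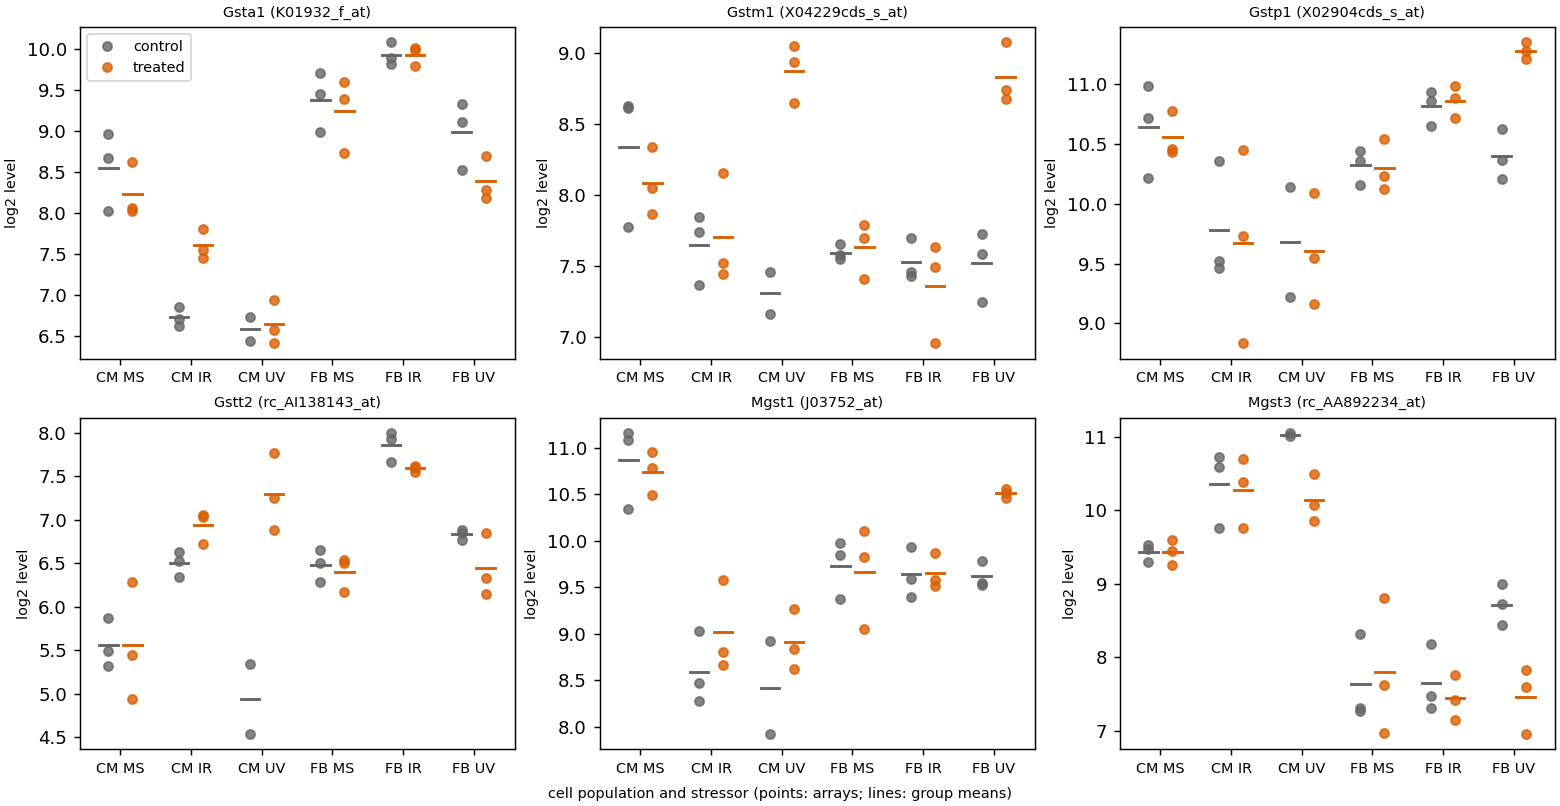
Log2 level of 1 probe-set for each of 6 genes (y axis) in the 6 comparisons (x axis), with points for arrays, grey for control and orange for treated, and lines for group means. The CM UV and FB UV groups show the rise of Gstm1 in both populations, of Gstt2 in CM, of Gstp1 and Mgst1 in FB, and the fall of Mgst3 in both.

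After IR the alpha class was the one with a call. Gsta1 levels for K01932_f_at were 6.62, 6.85 and 6.71 in the CM IR controls and 7.46, 7.56 and 7.80 after IR. The change was 0.88 or 1.84-fold (SE 0.15, adjusted p = 0.0153), and the groups did not overlap. The other Gsta1 probe-sets changed by 1.09 (adjusted p = 0.0605) and 0.78 (adjusted p = 0.220), also without overlap. This was 1 of 17 members called, and 0.732% of all probe-sets were called in CM IR, 0.286% as higher. In fibroblasts the same probe-sets changed by 0.00, 0.27 and 0.20, and none of the members was called (0 of 17, also 0 at an unadjusted p under 0.05), where 0.0801% of all probe-sets were called. The populations did not differ in a called way for K01932_f_at (0.88, adjusted p = 0.270), and no member probe-set was called for the difference after IR (0.0686% of all were).

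Treated array 3 of CM IR was scanned on another occasion than the other 5, and treated arrays 1 and 3 came from another array lot than the remaining 4. With the scan as a block, which rests on pairs 1 and 2, the change of K01932_f_at was 0.77 (adjusted p = 0.122). With the lot as a block, which leaves the pair of replicate 2, it was 0.71 (adjusted p = 0.487). The call was also lost without replicate 1 (0.90, adjusted p = 0.187), 2 (0.97, adjusted p = 0.0540) or 3 (0.77, adjusted p = 0.395). Fibroblast markers, the cell type in which Gsta1 was higher, summed to 26060 to 35730 in the CM IR controls and to 33260 to 38360 after IR. Of the 19 genes 1, Mmp2, was called higher (5.26%). The share by genes over all genes was not computed for CM IR, and by probe-sets it was 0.286%. The part of these fibroblast markers in the Gsta1 change was not tested.

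Other members stayed uncalled after IR. Gstt2 changed by 0.43 through rc_AI138143_at in CM IR (adjusted p = 0.378), without overlap between 6.53, 6.34 and 6.63 in the controls and 7.03, 6.72 and 7.06 after IR. In FB IR the same probe-set changed by -0.27 (adjusted p = 0.848), and Mgst1 by 0.42 in CM IR (adjusted p = 0.244).

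After MS no member was called in either population, where 0% of all probe-sets were called (limma, adjusted p under 0.05). At an unadjusted p under 0.05 there were 2 member probe-sets in CM MS, Gsta1 K01932_f_at at -0.32 and Gstt2 D10026_s_at at -0.32, and 1 in FB MS, Gstm1 H32189_s_at at 0.35. In CM MS 15 of the 17 changes were below 0, with a median of -0.13, and in FB MS 9 were. The changes ranged from -0.32 to 0.03 in CM MS and from -0.14 to 0.35 in FB MS. The difference between populations was called for 0 of 17 members after MS, as for 0% of all probe-sets.

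Other genes around glutathione were read from 6 lists, in which a gene counts as called where at least 50% of its probe-sets are. By that rule 10.2% of all 4736 genes rose and 9.21% fell in CM UV, and 13.9% rose and 13% fell in FB UV. The first list held 9 measured genes, 6 further ones with a Gst or Mgst symbol, and Alox5ap, Hpgds and Ptgds of eicosanoid synthesis. Of these, 1 rose in CM UV (11.1%, near the share of all genes), Gstk1, the mitochondrial kappa-class enzyme, by 1.22 (adjusted p = 0.0271), and none was called in FB UV. Of 15 genes of glutathione synthesis, amino acid uptake and breakdown, 4 rose in CM UV and none fell (26.7% called), and in FB UV 5 rose and 1, Cth, fell (40% called). Gclc, the catalytic subunit of the enzyme that limits glutathione synthesis, rose by 1.24 in CM UV (adjusted p = 0.0128) and 1.68 in FB UV (adjusted p = 2.46e-04). Gss, glutathione synthetase, rose by 1.43 and 0.91 (adjusted p = 0.00210 and 0.00602). Slc3a2, the heavy chain of the cystine transporter, rose by 1.50 and 0.88 (adjusted p = 5.16e-06 and 1.49e-05). Oplah, which recycles 5-oxoproline to glutamate, was also called higher in both populations.

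Of 21 peroxidase and thiol exchange genes, 5 rose in CM UV (23.8%, against 10.2% of all genes), and in FB UV 7 rose and 1, Gpx7, fell by 0.77 (38.1% called). Txnrd1, a thioredoxin reductase, rose by 0.65 and 0.62 (adjusted p = 0.00222 and 3.45e-04). Of 20 other conjugation and detoxication enzymes, 8 rose in CM UV (40%) and 11 in FB UV (55%), against 10.2% and 13.9% of all genes, and none fell. Ephx1, microsomal epoxide hydrolase, rose by 2.02 in CM UV and 2.89 in FB UV, and was also called in CM IR (2.19, adjusted p = 3.31e-05) and FB IR (1.49, adjusted p = 0.00249). Hmox1, the inducible haem oxygenase, rose by 1.80 and 0.95 after UV (adjusted p = 2.94e-05 and 2.56e-04).

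Among 9 genes of the list for export 1 rose in each UV comparison (11.1%, near the 10.2% and 13.9% of all genes). Abcb1b, a multidrug transporter, rose by 2.49 and 4.23, and it was called in CM IR (1.85) and FB IR (1.25) too. The list is broader than exporters of glutathione conjugates and also holds Abcb4, Abcc8 and Abcc9. Abcc1, an exporter of glutathione conjugates, fell by 0.96 in FB UV (adjusted p = 0.00347). Of 11 regulators, 5 rose in CM UV (45.5%) and 6 in FB UV (54.5%), against 10.2% and 13.9% of all genes. Fosl1, a subunit of AP-1, rose by 3.05 and 3.22 (adjusted p = 3.85e-05 and 1.57e-06). It lay at the floor on 1 of 2 CM UV controls and on none of the FB UV arrays, so the CM UV value is a lower bound. Cdkn1a, a target of p53, rose by 2.28 and 3.20. Jun, another subunit of AP-1, rose by 1.47 in FB UV (adjusted p = 1.83e-05) and changed by 0.19 in CM UV (adjusted p = 0.625). After MS none of the genes of these 6 lists was called. The median changes of the lists in CM UV ran from -0.25 for export to 0.68 for regulators, against 0 over all probe-sets.

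The genes whose changes over the 17 pairs were most like those of the brightest probe-set of each class were sought among 3676 probe-sets of other genes above the median level. They were Efemp1 (r = 0.895), Mgmt (0.851) and Churc1 (0.836) for Gsta1, and P2ry2 (0.793), Ssh3 (0.768) and Grk4 (0.746) for Gstm2. For Gstp1 they were Cd14 (0.878), Asl (0.864) and Por (0.859), for Gstt2 Acvr2b (0.909), Myl12b (0.893) and Rpl13a (0.890), and for Mgst1 Icam1 (0.925), Dgka (0.892) and Asl (0.890). These Pearson correlations are descriptions over pairs of 6 comparisons, in which arrays of a comparison share their treatment. Probe-sets of the same gene agreed to different degrees on the same scale: r was 0.933 for the pair of Gstp1, 0.798 to 0.921 for Gsta1, 0.837 to 0.940 for Gstm1, 0.804 for Gstt2, 0.492 for Gsta4 and 0.304 for Gstm2.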

How the data were processed

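Affymetrix RG-U34A arrays of 35 RNA samples were analysed from the deposited table of intensities, 1 value per probe-set and array on a linear scale. The authors had scaled its values to 1 of 2 levels. Means trimmed by 2% at each end were 200.3 to 200.4 on 26 arrays and 1001 to 1002 on 9 arrays. The 9 were all CM IR arrays, CM UV control 2, and CM UV treated arrays 2 and 3. All FB and MS arrays were on the lower level. In the IR controls level and population cannot be told apart, and in the UV controls they can be only in part. The software that made the values is not given in the sources used here. The gcrma and VSN steps of the methods are not in these values. Per the file headers, the deposited scan records (16 arrays) hold lot and scan, and other scan settings, with no expression values. The precision is limited by the number of arrays.

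Each array was scaled to a common 75th percentile (175), values under 6.88 (the 20th percentile) were set to it, and log2 values were quantile normalised. After leaving out 59 control probe-sets, 8740 were tested with limma 3.58.1 in R 4.3.3 (lmFit, eBayes with trend) over all 35 arrays, with a term for each experiment of a population and stressor. A call is a Benjamini-Hochberg adjusted p under 0.05 over all probe-sets, and a gene is called where at least 50% of its probe-sets are. CM UV treated array 3 has no control in its block and adds nothing to that change. Untreated populations were compared over the 17 control arrays without a block. The analysis was tested on simulated data. Replicates are independent experiments, per the methods. Numbers pair the arrays by the study's model: same-numbered deviations correlated from 0.063 to 0.797 over 17 pairs, above 0.1 in 15 of them, and for 1 pair another number correlated more.

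The probe annotation names 1 gene for 7006 probe-sets, several for 308 and none for 1426. The 308 stay out of all gene lists. Of the 7006, 6985 matched the rat gene table, which updated symbols. Members, lists and tests were chosen with earlier results of these data known. All member probe-sets are named. From each pathway list, genes were picked by the smallest adjusted p among called probe-sets over both UV comparisons, up to 4 per list. Of these, Idh1, Prdx1, Gpx1, Por, Sult1a1 and Mdm2 are not described with their lists. Oplah and Cth are named in addition. A class is represented by its brightest probe-set in the search for similar genes. Alternatives were: no or random block, no quantile normalisation, a pseudocount of 16, a higher floor at the 40th percentile, dim probe-sets left out, only the arrays of a comparison, each replicate number left out, and scan or lot as a block. A replicate number was left out of all groups at once, so the whole fit then had fewer arrays.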

Additional observations from a re-analysis of the deposited data

Results flagged for a closer look

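For 3 probe-sets the change after UV differed between the populations in the test of the difference itself. The CM-enriched change exceeded that of the fibroblasts by 1.40 for Gstt1 (adjusted p = 0.0107), by 1.53 for Gstt2 D10026_s_at (adjusted p = 0.00231) and by 2.51 for Gstt2 rc_AI138143_at (adjusted p = 3.17e-04, limma over all probe-sets). Another 3 were noted because every pair of one population moved up and every pair of the other moved down, and for them the tested difference did not pass the threshold. These are Gsta4 after UV, lower in CM-enriched fractions by -0.41 for X62660mRNA_at (adjusted p = 0.491) and by -0.55 for X62660mRNA_g_at (adjusted p = 0.126), and Gstt2 rc_AI138143_at after IR, higher by 0.71 (adjusted p = 0.464). The groups are of 3 arrays at most, so single arrays far from the others were not searched for.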

How the results depend on the processing

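Of the 43 calls over members, 15 held under every alternative run for them, and no call changed sign. The settings numbered 12, of which those with scan or lot as a block were run for CM IR alone. Without the replicate block, that is without the pairing, CM IR had 0 higher, CM UV 0 lower, FB UV 1 lower and 1 difference between populations after UV was higher in CM, against 1, 1, 5 and 3. With a random replicate block (correlation 0.307) CM IR had 2 higher and CM UV 0 lower, and FB UV had 4 lower, without Gstt1. CM IR also had 2 higher with scaling alone, with a pseudocount and with dim probe-sets left out, and the latter 2 settings gave 1 difference after UV lower in CM against 0. On only the arrays of a comparison CM IR had 0 higher, CM UV 0 higher and 0 lower, FB UV 3 higher and 1 lower, and the UV difference 0, since fewer arrays leave few residual degrees of freedom. With scan or lot as a block CM IR had 0 higher. Leaving out each replicate number gave 0 higher in CM IR, 3 to 6 higher and 0 to 2 lower in CM UV, 1 to 2 lower in FB UV, 0 to 1 lower for the UV difference, and 0 to 3 higher and 1 to 4 lower in CM among the MS controls. The calls lost without the block were Gsta1 in CM IR and FB UV, Gstt1 and Mgst3 in CM UV, Gstp1 and Gstt1 in FB UV, and the UV differences of Gstt1 and of Gstt2 D10026_s_at. With the higher floor the calls lost were those of Gstt1 in CM UV and in the UV difference, and with scaling alone those of Gstt1 in CM UV and of Gsta1 X78848cds_f_at in FB UV. The cause of these shifts was not tested. Scan occasions were numbered within each comparison, so whether the CM IR controls and the FB IR controls 1 and 2 shared a scan is not known here. Scan and population may therefore not be told apart for them. The scan of FB IR control 3 is not known here either. Signals near the floor, such as those of Gstt1 in CM UV, limit how far a change can be read.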
